A study of Mus musculus with 87 samples.

Results

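The mitochondrially encoded genes were taken as every entry of the gene tables whose Ensembl identifier maps to a symbol beginning with mt-. The rule found 37 of the 43346 Ensembl genes in each table. They are the whole gene set of the mouse mitochondrial genome, namely 13 protein-coding genes, 2 ribosomal RNA genes and 22 transfer RNA genes. Expression levels played no part in the choice. Counts were present for 15 of the 37, the 13 mRNAs and the 2 rRNAs. The 22 tRNA genes, of 59 to 75 bases, had a count of 0 and an effective length of 0 in all 64 libraries, so no value for a tRNA is given and their level was not measured.

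The libraries came from mice in which 1 boundary between topologically associating domains (TADs) had been deleted from the nuclear genome by CRISPR/Cas9 injection into fertilised FVB eggs. RNA-seq was made at embryonic day 11.5 from embryos homozygous for a deletion and from wild-type littermates, in 7 lines named B2 to B8, all of strain FVB. Every cell of a homozygous embryo carries the deletion, and no group differs by design in its mitochondrial genome. Line B2 gave 4 hearts and 6 lungs of each genotype. From lines B3 and B5 came faces and hearts, from B4 guts and midbrains, and from B8 forebrains and neural tubes, with 2 libraries of each genotype. Lines B6 and B7 each gave 2 faces of each genotype and 2 homozygous hearts, but no wild-type heart. Those hearts were therefore set against 8 wild-type hearts from other lines (B2, B3 and B5), where line and genotype cannot be told apart.

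Mitochondria keep a small circular genome that is copied, transcribed and translated inside the organelle by proteins made from nuclear genes. Its mRNAs encode core subunits of the respiratory chain: complex I (NADH dehydrogenase), complex III (the cytochrome bc1 complex), complex IV (cytochrome c oxidase) and complex V (ATP synthase). Transcription gives long RNAs of both strands, from which tRNAs are cut out and so free most of the mRNAs and rRNAs between them. The heart relies heavily on oxidative respiration and is rich in mitochondria.

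The mitochondrial chromosome of the mm10 build has 16299 bases. Of the 13 mRNAs, 7 belong to complex I (mt-Nd1, mt-Nd2, mt-Nd3, mt-Nd4, mt-Nd4l, mt-Nd5 and mt-Nd6), 1 to complex III (mt-Cytb), 3 to complex IV (mt-Co1, mt-Co2 and mt-Co3) and 2 to complex V (mt-Atp6 and mt-Atp8). The 2 rRNAs are mt-Rnr1 at chrM:70-1024, of the small ribosomal subunit, and mt-Rnr2 at chrM:1094-2675, of the large subunit. The longest mRNA genes include mt-Nd5 (chrM:11742-13565), mt-Co1 (chrM:5328-6872), mt-Nd4 (chrM:10167-11544) and mt-Cytb (chrM:14145-15288). mt-Nd6 (chrM:13552-14070) is the only mRNA gene on the minus strand, and 9 of the 37 genes lie there. Neighbouring genes overlap in several places. mt-Nd5 and mt-Nd6 share 14 bases from opposite strands, and the strand setting of the counting is not given in the sources used here, so reads from the RNA opposite mt-Nd6 cannot be told apart from its own. Stretches on the plus strand are given, from the reference genome of the same build, because they bear on which reads could be assigned to which gene. In the first the capitals mark the bases shared by mt-Atp8 and mt-Atp6 (chrM:7919-7977, 43 bases shared). In the second they mark the bases shared by mt-Nd4l and mt-Nd4 (chrM:10159-10181, 7 bases shared). The third is the shortest tRNA gene, mt-Ts2 (chrM:11613-11671), whole, as an example of the genes that carried no count.
mt-Atp8 and mt-Atp6: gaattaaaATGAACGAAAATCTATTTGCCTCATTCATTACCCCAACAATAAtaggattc
mt-Nd4l and mt-Nd4: ctactacaATGCTAAaaattatt
mt-Ts2: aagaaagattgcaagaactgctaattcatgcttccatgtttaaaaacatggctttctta

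Part of the mitochondrial genome is also present in the nuclear genome. A search of the mitochondrial sequence against the nuclear genes of the annotation found 15 that match it over at least 100 bases at 90% identity or more. Among them 7 differ from it at 1 base or none over the aligned bases. All 7 are neighbouring unprocessed pseudogenes on the minus strand of chromosome 1. They are Gm29216 (chr1:24615706-24616197, a copy of mt-Co1), Gm28661 (chr1:24614885-24615565, mt-Co2), Gm10925 (chr1:24613974-24614651, mt-Atp6), Gm28437 (chr1:24613189-24613971, mt-Co3), Gm28438 (chr1:24612775-24613119, mt-Nd3), Gm10222 (chr1:24612407-24612700, mt-Nd4l) and Gm28439 (chr1:24611535-24612410, mt-Nd4). Gm28661 and mt-Co2 were identical over 681 aligned bases, Gm28437 and mt-Co3 over 783, Gm10925 and mt-Atp6 over 678, Gm28439 and mt-Nd4 over 876, and Gm10222 and mt-Nd4l over 294. Gm29216, of 492 bases, differed from mt-Co1 at 1 of 483 aligned bases, and Gm28438 from mt-Nd3 at 1 of 345. A read that falls inside an identical stretch can be assigned to either place. Both single differences are shown with the differing base in capitals, each in the direction of the mitochondrial plus strand, so the nuclear copies are read from their minus strand. The last line gives the start of mt-Co3 (chrM:8607-8656), which Gm28437 holds without a difference.
mt-Co1, chrM:6390-6418: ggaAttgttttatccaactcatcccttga
Gm29216, chr1:24616160-24616188: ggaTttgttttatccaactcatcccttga
mt-Nd3, chrM:9459-9486: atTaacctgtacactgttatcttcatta
Gm28438, chr1:24613092-24613119: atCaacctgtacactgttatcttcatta
mt-Co3, start: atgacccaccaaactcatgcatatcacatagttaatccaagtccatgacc

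Total counts were between 8391553 and 31793440 per library, and between 17075533 and 26483003 outside the lungs. The tissue labels were checked against marker lists. Summed cardiomyocyte markers were between 10488 and 31479 CPM (a gene's count scaled to the same total in every library) in the 20 hearts and no higher than 433.3 CPM elsewhere. Cranial mesenchyme markers were between 1050 and 1554 CPM in the 16 faces, forebrain markers between 912.6 and 1025 CPM in the 4 forebrains, and lung markers between 294.2 and 345.6 CPM in 10 of the 12 lungs. The gut list was between 194.3 and 267.5 CPM in the 4 guts, a range that the faces and lungs also reached. Hepatocyte markers stood at 5307 to 8284 CPM in the guts. The neural tube list did not separate neural tubes (199.6 to 257.3 CPM) from forebrains (194.5 to 222.8 CPM). Neural tubes held 365.2 to 433.3 CPM of cardiomyocyte and 165.4 to 280.3 CPM of skeletal muscle markers. Forebrains held at most 12.1 and 3.53 CPM of these. The wild-type lungs E5420-07 and E5420-09 stood apart from the other 10, and the lung comparisons are given with and without them. In E5420-09 the 10 most abundant genes took 90.1% of the counts. Among the hearts, homozygous B5 heart 1 stood apart, with cranial mesenchyme markers at 840 CPM, neuron markers at 453 CPM and forebrain markers at 154 CPM, against at most 119, 27.8 and 24.1 CPM in the other 3 hearts of that line. It also had the fewest erythroid counts among them, 10305 against at least 91606 CPM. Lung and gut markers were highest in wild-type B5 heart 2, at 140.7 and 101.1 CPM. They were at 47.4 and 80.5 CPM in homozygous heart 1 and at 36.8 and 39.8 CPM in wild-type heart 1. In homozygous heart 2 they were at 1.03 and 2.43 CPM. Homozygous B8 neural tube 2 had 42273 CPM of Gm42418 and 4752 CPM of Lars2, where the other 3 neural tubes had 344 to 533 and 66.9 to 76.2 CPM.

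Outside the lungs the mitochondrially encoded genes held between 0.387% and 3.65% of a library's counts, with a median of 1.20% over 52 libraries. The hearts were highest, at 1.72% to 3.65% with a median of 2.47% over 20 libraries. Faces held 0.481% to 1.62% (16 libraries), guts 0.387% to 1.10%, forebrains 0.688% to 0.921%, neural tubes 0.734% to 0.922% and midbrains 0.436% to 0.617% (4 libraries each). The 20 hearts all lay above the 16 faces, while the brain, neural tube, gut and face ranges overlapped in part. In bulk tissue, fewer cells of a type and less RNA per cell cannot be told apart.

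The lungs were of another composition. In 10 lungs the genes held 11.3% to 14.05% of counts, and the 2 rRNAs alone 10.5% to 13.1%. Elsewhere the rRNAs held 0.0175% to 0.0717%. The 13 mRNAs held 0.785% to 0.938% of counts in the same 10 lungs, within the range of the faces' totals and below every heart, where they held 1.69% to 3.59%. So the high lung total was made up of rRNA, which was 92.7% to 93.3% of the mitochondrial counts in those lungs and 1.37% to 5.84% in all other tissues. E5420-07 and E5420-09 held 0.362% and 1.54%. With the 10 most abundant nuclear genes of each library left out of its total, they held 0.515% and 13.9%. The other 10 lungs then held 13.4% to 16.1%. Nuclear RNAs that carry no poly(A) tail (Rn7sk, Rmrp, Rpph1, Hist1h1c and Hist1h4d, summed) moved with this difference, at 13466 to 17195 CPM in the 10 lungs and 5.15 to 94.1 CPM in all other tissues. They stood at 32095 CPM in E5420-07 and 1679 CPM in E5420-09. In E5420-09 those CPM are scaled to a total of which 10 genes took 90.1%. The library kit is not given in the sources used here, the lung libraries carry other library codes than the rest, and tissue and library series cannot be told apart.

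**Figure D1:**
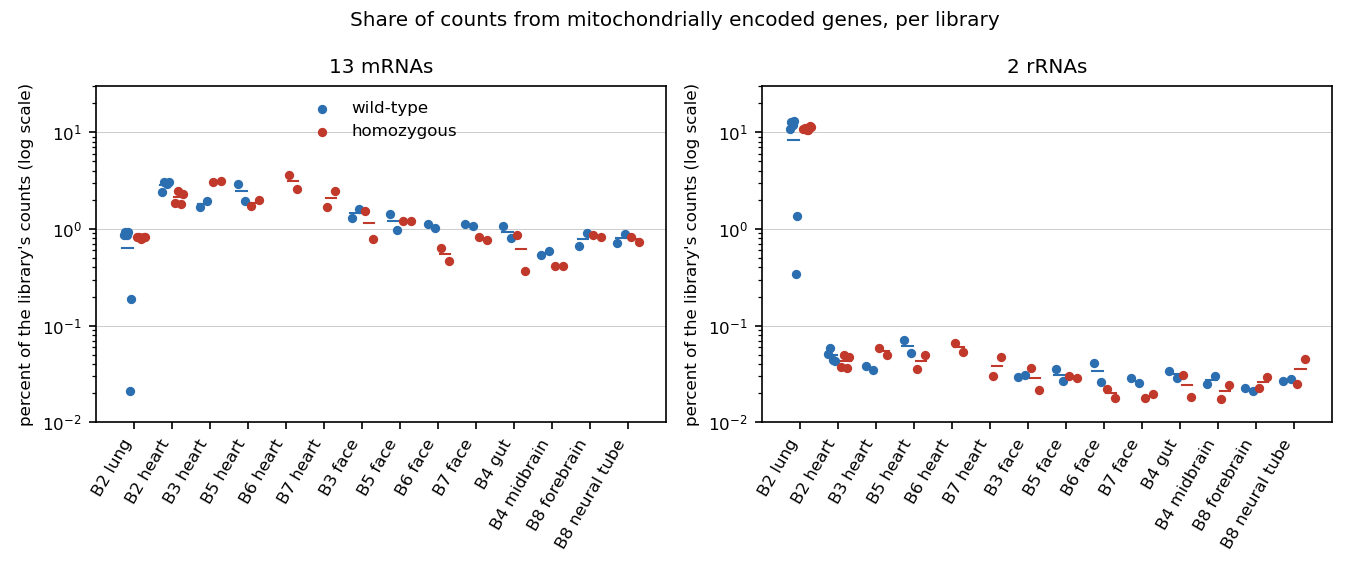
Percent of each library's counts that came from the 13 mitochondrial mRNAs (left) and the 2 mitochondrial rRNAs (right), by line and tissue, on log axes; each point is 1 library, blue for wild type and red for homozygous, and bars are group means. The mRNA share is highest in hearts (1.69% to 3.59%), and the rRNA share is 10.5% to 13.1% in 10 lungs against at most 0.0717% outside the lungs.

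Among the mRNAs, levels in CPM followed this order over the 52 libraries outside the lungs. mt-Co1, which encodes the catalytic subunit of cytochrome c oxidase, had the highest median, 3061 CPM, with a lowest library at 801 and a highest at 12849, and made up 19.4% to 35.2% of mitochondrial counts. mt-Nd1, a membrane subunit of complex I, had a median of 1640 CPM (610 to 4988), and mt-Cytb, the haem-carrying subunit of complex III, 1538 CPM (393 to 4864). mt-Nd4, another membrane subunit of complex I, followed at 1343 CPM (329 to 3886). Medians of 762 to 902 CPM were found for mt-Co3 (72.1 to 2718), mt-Atp6 (305 to 3013), mt-Nd5 (237 to 2791) and mt-Nd2 (287 to 2076). Their ranges overlapped almost whole. mt-Nd3 had a median of 286 CPM (102 to 569), mt-Nd6 of 222 CPM (40.1 to 746) and mt-Co2, which receives the electrons from cytochrome c, of 179 CPM (52.4 to 801). The lowest mRNAs were mt-Atp8 with a median of 27.1 CPM (6.55 to 169) and mt-Nd4l with 24.1 CPM (2.80 to 110). The rRNAs were far below most mRNAs in these libraries, mt-Rnr2 at 162 CPM (73.0 to 375) and mt-Rnr1 at 161 CPM (67.4 to 342). This order is that of the counts as deposited, and it changes when each member is added to its nuclear copy, described further on. With copies summed the medians were 3191 CPM for mt-Co1, 2171 CPM for mt-Co3 (1154 to 5422) and 1832 CPM for mt-Co2 (594 to 6885), the 3 highest, all of complex IV. mt-Atp6 stood at 1402 CPM and mt-Nd4l at 100.2 CPM, and the other members moved by little or not at all.

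Set beside each other per length, in the deposited TPM, the order changed. The median TPM outside the lungs was 3368 for mt-Nd3, 3302 for mt-Co1, 3233 for mt-Nd1, 2721 for mt-Atp6, 2382 for mt-Cytb and 2116 for mt-Co3. mt-Nd4 stood at 1588, mt-Nd2 at 1284, mt-Nd6 at 997, mt-Nd5 at 713, mt-Co2 at 595 and mt-Nd4l at 585. The rRNAs were at 285 (mt-Rnr1) and 168 (mt-Rnr2). mt-Atp8 had the highest median TPM, 9778, from a median of 27.1 CPM. Its effective length, the number of start positions left for a fragment, was only 1.26 to 48.64 bases across libraries, so a few reads weigh heavily in its TPM. The same length was 22.6 to 135.07 bases for mt-Nd4l and 56.54 to 185.41 bases for mt-Nd3. For these 3 short genes TPM depends on the fragment lengths of the library, and no rank per length is read for them. The TPM of mt-Co2, mt-Co3 and mt-Atp6 leave out the reads given to their nuclear copies, described further on. In CPM the median of mt-Co2 was 179 as deposited and 1832 with its copy summed. No rank per length is read for these members either.

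The counts of 7 members were shared with the chromosome 1 copies in proportions that differed widely between genes. mt-Co2 received a median of 12.4% of the counts of itself and Gm28661 together over the 64 libraries, from 4.96% to 75.5%. mt-Nd4l received 24.01% (9.22% to 100%), mt-Co3 35.2% (0.0401% to 79.3%) and mt-Atp6 52.1% (0% to 100%). The copy, not the mitochondrial gene, thus carried most of the counts for mt-Co2. The other members with a copy kept more at the median: 94.7% for mt-Co1 (78.9% to 98.1%), 97.4% for mt-Nd3 (28.1% to 99.8%) and 99.98% for mt-Nd4 (97.9% to 100%). In the 10 lungs mt-Nd3 kept 28.1% to 69.5%. The split of mt-Co3 differed between sets of libraries. Its median share was 9.32% in midbrain, 14.9% in forebrain, 15.6% in gut and 23.9% in neural tube, against 45.8% to 60.3% in the faces and hearts of B3, B5, B6 and B7. The B2 hearts were at 17.8% (12.4% to 21.1%), below every other heart. What set these shares was not tested. Single libraries could lie at an end of the range: E5420-09 had 0 CPM of mt-Atp6 and 204 CPM of Gm10925, and E5420-07 had 0.0236 CPM of mt-Co3 and 58.8 CPM of Gm28437. Because RSEM divides reads between identical sequences by estimation, the values of mt-Co2, mt-Co3, mt-Atp6 and mt-Nd4l are uncertain on their own. Each comparison was therefore also run with each member and its copy summed.

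The 7 copies held 0.00849% to 1.298% of a library's counts, with a median of 0.378%. Adding them to the members raised the median share in hearts from 2.47% to 3.41% and in faces from 1.12% to 1.48%. The order of hearts over faces was the same with them.

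**Figure D2:**
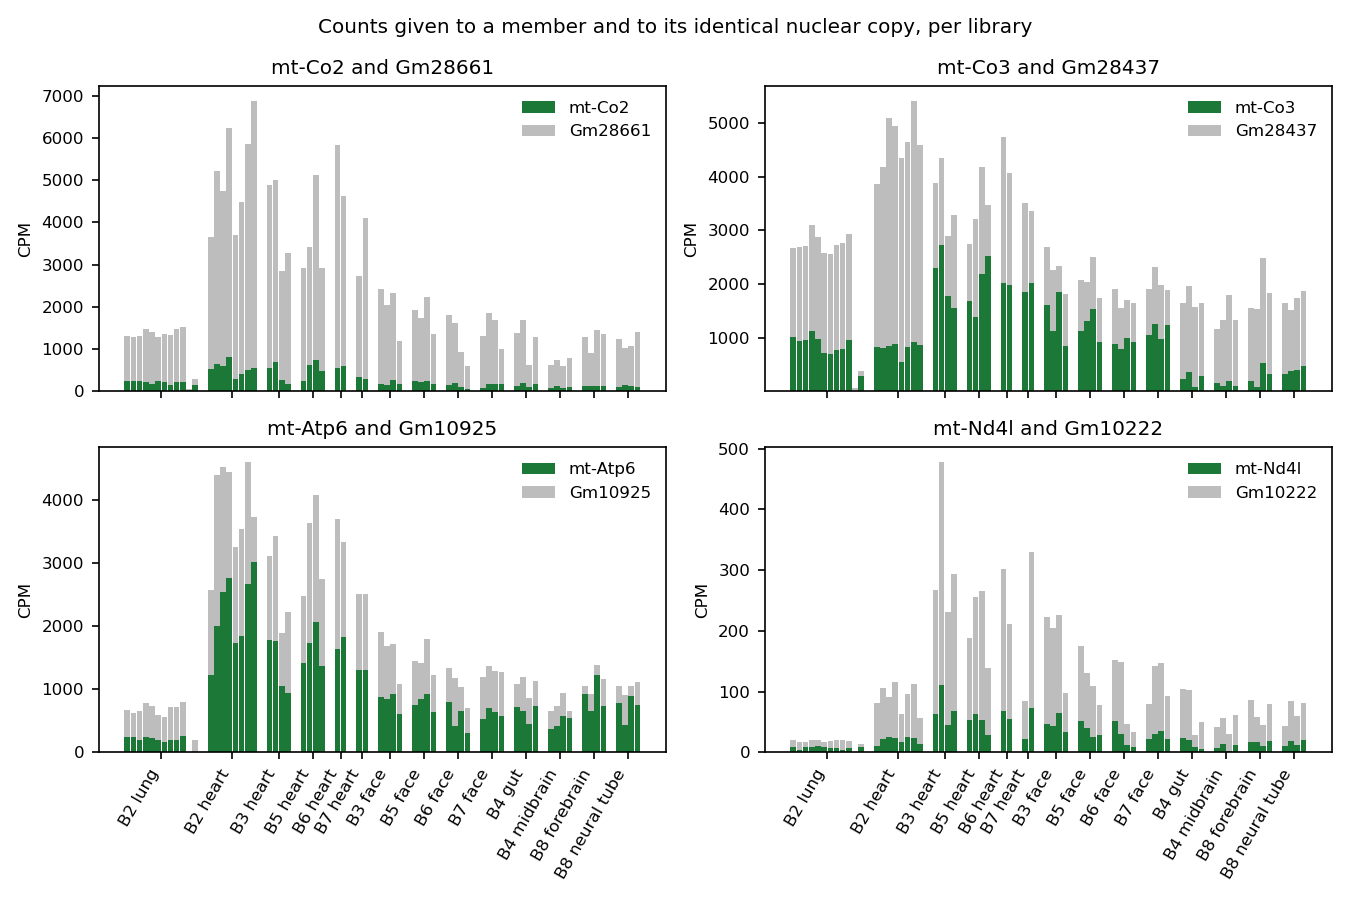
CPM of mt-Co2, mt-Co3, mt-Atp6 and mt-Nd4l (green) and, stacked on each, of the nuclear copies Gm28661, Gm28437, Gm10925 and Gm10222 (grey), for each of the 64 libraries grouped by line and tissue. The green part is a small share of the bar for mt-Co2 (median 12.4%) and a changing share for mt-Co3 (0.0401% to 79.3%).

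Replicates of a group differed by unequal amounts from member to member. As the pooled SD of log2(CPM + 0.5) around the group means, over 52 libraries outside the lungs, the spread was 0.226 for mt-Nd3, 0.264 for mt-Nd1, 0.280 for mt-Nd2 and 0.282 for mt-Rnr2. The next were mt-Atp6 at 0.321, mt-Nd5 at 0.331, mt-Nd6 at 0.350, mt-Rnr1 at 0.351, mt-Cytb at 0.357, mt-Nd4 at 0.372 and mt-Co1 at 0.381. It was largest for mt-Co2 (0.431), mt-Co3 (0.472), mt-Nd4l (0.545) and mt-Atp8 (0.756). With copies summed the spread fell to 0.199 for mt-Co3, 0.332 for mt-Co2 and 0.253 for mt-Atp6, and was 0.534 for mt-Nd4l. The members varied together. Over 105 pairs of members the deviations from the group means correlated with a median Pearson r of 0.53 (-0.00874 to 0.972), and of 0.596 (0.171 to 0.974) with copies summed. These values describe 52 libraries that share depth and normalisation, and the pairs are not independent. mt-Co2 stood out before the sum, with a median r of 0.193 with the other members, and did not after it, with 0.775.

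Heart was compared with face in lines B3 and B5, which gave both tissues. Differences are log2 fold changes from edgeR's quasi-likelihood test, with p-values adjusted by Benjamini and Hochberg over all genes tested and a gene called at an adjusted p under 0.05. All 15 members were called higher in heart, against 71.6% of the 16009 genes tested that were called in either direction. The median of the members was 1.12 on the log2 scale, with a range of 0.75 (mt-Nd3) to 1.495 (mt-Atp8). mt-Nd6, a complex I subunit, was at 357.4 to 746.0 CPM in the 8 hearts (median 427.9) and at 146.4 to 293.7 CPM in the 8 faces (median 233.8). Those ranges did not overlap, and the log2 fold change was 1.34 (SE 0.21, adjusted p = 6.64e-05). mt-Atp6, a proton channel subunit of ATP synthase, was at 944.9 to 2072 CPM in hearts and 613.7 to 927.4 CPM in faces, again without overlap, with a log2 fold change of 1.16 (SE 0.18, adjusted p = 5.28e-05). mt-Co2 at 166.9 to 738.9 CPM in hearts and 135.4 to 276.5 CPM in faces overlapped, with a log2 fold change of 1.41 (SE 0.30, adjusted p = 0.000786). The widest error belonged to mt-Atp8, a small subunit of ATP synthase, at 18.5 to 169.4 CPM against 9.4 to 74.3 CPM, with 1.495 (SE 0.48, adjusted p = 0.0124). mt-Nd3 differed least and its ranges overlapped, at 306.3 to 481.3 CPM in hearts and 210.4 to 332.2 CPM in faces.

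Lines B6 and B7 allowed the same comparison in homozygous embryos alone. Again all 15 members were called higher in heart, against 70.4% of 15556 genes tested, with a median log2 fold change of 2.04 and a range of 0.90 (mt-Nd3) to 2.89 (mt-Nd6). mt-Nd6 was at 307.7, 502.0, 510.6 and 629.8 CPM in the 4 hearts and at 57.5, 67.3, 102.8 and 112.4 CPM in the 4 faces. No heart came near a face, and the log2 fold change was 2.89 (SE 0.26, adjusted p = 3.93e-06). mt-Co1 was at 4472, 7821, 7985 and 12849 CPM in hearts against 934, 1305, 1538 and 2001 CPM in faces, with 2.86 (SE 0.33, adjusted p = 2.35e-05). mt-Nd5, a complex I subunit, differed by 2.71 (SE 0.29, adjusted p = 1.38e-05) and mt-Cytb by 2.57 (SE 0.29, adjusted p = 1.92e-05). mt-Nd3 and mt-Co3 differed least, by 0.90 and 1.25. The homozygous faces used here are the same ones that are set against wild-type faces further on, and the difference between both pairs of lines was not tested.

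Gut was compared with midbrain in line B4. There 7 members were called higher in gut and 0 lower, against 66.6% of genes called. All but mt-Rnr2 (log2 fold change -0.10) lay above 0, with a median of 0.66. mt-Nd1 was at 733.9 to 1563 CPM in the 4 guts and 610.0 to 882.5 CPM in the 4 midbrains, with a log2 fold change of 0.74 (SE 0.19, adjusted p = 0.00717). mt-Nd4 was at 990.1 and 328.7 CPM in the homozygous guts and 1319 and 1008 CPM in the wild-type ones, against 404.5 to 667.8 CPM in the midbrains. So 1 gut lay below every midbrain, and the log2 fold change was 0.76 (SE 0.27, adjusted p = 0.0299). mt-Cytb differed by 0.73 (SE 0.25, adjusted p = 0.025) and mt-Co1 by 0.73 (SE 0.27, adjusted p = 0.037). mt-Co2, mt-Nd2 and mt-Rnr1 were the other members called, at 0.58, 0.66 and 0.63. Between 4 and 11 members were called as each library was left out: 4 without wild-type midbrain 1, wild-type midbrain 2, homozygous gut 1 or wild-type gut 1, and 11 without homozygous gut 2 or wild-type gut 2. DESeq2 called 5 and did not call mt-Nd4 (adjusted p = 0.0596), mt-Cytb (0.0563) or mt-Co1 (0.0832).

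The neural tube and forebrain of line B8 were close. Of the 15 members 0 were called by edgeR, where 36.2% of all genes were, and DESeq2 also called 0. At an unadjusted p under 0.05 there was 1, mt-Rnr1, at 88.7 to 260.0 CPM in the 4 neural tubes and 76.6 to 124.2 CPM in the 4 forebrains (log2 fold change 0.65, SE 0.29, edgeR adjusted p = 0.105). mt-Atp6 was at 435.3 to 894.6 CPM against 652.4 to 1227 CPM, with -0.30 (edgeR adjusted p = 0.158). Both ranges overlapped, and the median over the members was -0.04. Muscle markers were higher in the neural tubes, as given above, and their part in the result was not tested. The highest mt-Rnr1 value was that of homozygous neural tube 2, the library with high Gm42418 and Lars2, and the other 3 neural tubes were at 88.7 to 133.2 CPM. Without it mt-Rnr1 was at 0.23 (edgeR adjusted p = 0.44), and without homozygous neural tube 1 it was called, at 0.87 (edgeR adjusted p = 0.0125).

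Lung against heart in line B2 gave 2 members higher and 10 lower, against 80.4% of genes called. The rRNAs and the mRNAs went opposite ways. mt-Rnr2 was at 181 to 314 CPM in the 8 hearts and at 99264 to 124557 CPM in 10 lungs, a ratio of medians of 490, and mt-Rnr1 at 171 to 274 CPM against 5206 to 6641 CPM, a ratio of 26.4. Over all 12 lungs the log2 fold changes were 8.71 (SE 0.50, adjusted p = 9.13e-13) and 4.76 (SE 0.47, adjusted p = 6.48e-09). The 10 lungs lay far above every heart for both genes, and the larger change was that of the large-subunit rRNA. In E5420-07 mt-Rnr1 was at 89.5 CPM, below every heart. mt-Nd4 was at 1853 to 3652 CPM in hearts and 152 to 215 CPM in the 10 lungs, with a log2 fold change of -3.74 (SE 0.42, adjusted p = 5.56e-08), and mt-Atp6 at 1226 to 3013 CPM against 162 to 264 CPM, with -3.56 (SE 0.47, adjusted p = 5.09e-07). mt-Nd2 stood at 1399 to 2076 CPM against 133 to 200 CPM. mt-Co1 did not share that distance, at 4399 to 9018 CPM in hearts and 4634 to 5181 CPM in the 10 lungs, a log2 fold change of -0.51. Nor did mt-Co3, at 541 to 922 CPM against 686 to 1131 CPM. Together with Gm28437, mt-Co3 was at 3862 to 5422 CPM in hearts and 2561 to 3105 CPM in the lungs, without overlap. With copies summed mt-Atp6 was at -2.47 and 13 members were called. Without E5420-07 and E5420-09, 14 were called and the values became 8.87 for mt-Rnr2, 4.78 for mt-Rnr1, -3.90 for mt-Nd4 and -3.26 for mt-Atp6. RNAs without a poly(A) tail were also far higher in the 10 lungs, as given above, but did not go with mt-Rnr1 in E5420-07. Their part in this result was not tested.

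**Figure D3:**
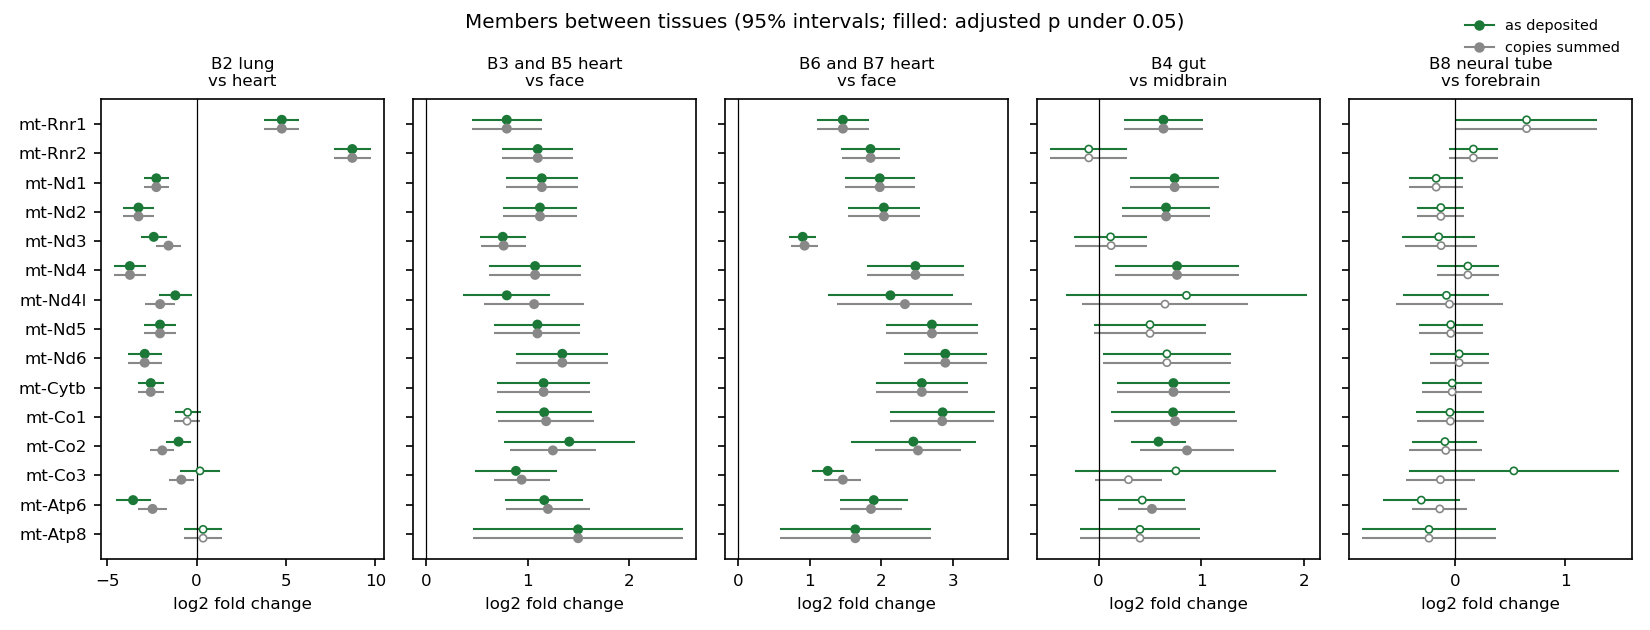
Log2 fold changes with 95% intervals of the 15 members in the 5 comparisons between tissues, from the counts as deposited (green) and with near-identical nuclear copies summed (grey); filled points passed the adjusted p of 0.05. All members lie above 0 in heart against face, from 0.75 to 1.495 in B3 and B5 and from 0.90 to 2.89 in B6 and B7, and in lung against heart the 2 rRNAs lie far above 0 while 10 mRNAs were called below it.

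Nuclear genes were described from fixed lists. The list of subunits held 24 nuclear genes of complexes I to V, a chosen part of all such genes. Sdha and Sdhb among them are of complex II, to which no member belongs. All 24 were called higher in heart than in face, where 71.6% (B3 and B5) and 70.4% (B6 and B7) of all genes were called. The median log2 fold change was 0.99 in B3 and B5 and 1.13 in B6 and B7. Ndufs1, a core subunit of complex I, was at 1.47 and 1.68, Cox5a of complex IV at 1.34 and 1.52, and Cyc1 of complex III at 1.22 and 1.39. Nuclear and mitochondrially encoded subunits were higher in heart together in both pairs of lines. In gut against midbrain 17 of 24 were called higher and 0 lower (median 0.29), among them Ndufs7 at 0.62, Ndufs8 at 0.48, Cox5b at 0.42 and Atp5c1 at 0.40. In neural tube against forebrain edgeR called 0 of 24, with 2 at an unadjusted p under 0.05. In lung against heart all 24 were called lower (median -2.07), among them Cyc1 at -3.12, Cox6a1 at -2.87, Cox5a at -2.76 and Atp5d at -2.70. Without E5420-07 and E5420-09 all 24 were again called lower, with a median of -2.08, where 88% of genes were called. Of all genes, 66.6% were called in gut against midbrain, 36.2% in neural tube against forebrain and 80.4% in lung against heart. Of the 15728 genes tested in gut against midbrain, 5640 were called higher and 4832 lower. The 17 of 24 called higher there were not tested against these numbers.

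Genes that transcribe, process and translate mitochondrial RNA went in both directions. Of the 35 tested, 15 were higher and 8 lower in heart than face in B3 and B5 (median 0.06), and 14 higher and 7 lower in B6 and B7 (median 0.16). These are 23 and 21 of 35, beside the 71.6% and 70.4% of all genes called there, and the difference from the subunits was not tested. Gfm1, a mitochondrial translation elongation factor, was at 1.46 and 1.79, Fastk, which acts in the maturation of mt-Nd6, at 1.08 and 1.31, and Fastkd1 at 0.87 and 1.17. Rexo2, a mitochondrial oligoribonuclease, was at 0.76 in B3 and B5, and Lrpprc, which stabilises mitochondrial mRNAs, at 1.00 in B6 and B7. Gut exceeded midbrain for 17 and fell below it for 1 (median 0.30), with Rexo2 at 0.91, Top1mt and Pnpt1 each at 0.87, and Lrpprc at 0.69. In neural tube against forebrain 0 were higher and 7 lower (median -0.07), with Rexo2 at -0.62, Top1mt at -0.46, Polg at -0.40 and Ssbp1 at -0.39. Lung against heart gave 8 higher and 13 lower (median -0.02), with Fastk at -1.86, Tufm at -1.54, Gfm1 at -1.45 and Tsfm at -1.32. Without E5420-07 and E5420-09 it gave 14 higher and 15 lower (median -0.02). Of all genes, 66.6% were called in gut against midbrain and 36.2% in neural tube against forebrain. In lung against heart 80.4% were, or 88% without those lungs, and the list was not tested against these shares.

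Of the 5 regulators of mitochondrial biogenesis, 4 were higher and 1 lower in heart than face in both pairs of lines. Ppargc1a, the coactivator PGC-1 alpha, was at 3.93 and 4.71, Ppargc1b at 2.21 and 2.70, Esrra at 1.52 and 1.86, and Nrf1 at -0.56 and -0.64. In gut against midbrain Ppargc1b (2.14) and Gabpa (0.20) were called higher. In neural tube against forebrain Ppargc1a (-0.67) and Nrf1 (-0.22) were called lower. Lung against heart had 2 higher and 3 lower, with Ppargc1a at -3.03, Esrra at -2.79, Ppargc1b at -1.18 and Nrf1 at 1.06, and the same counts without E5420-07 and E5420-09. The nuclear copies of mitochondrial sequence followed the members: 6 of the 7 tested were called higher in heart than face in B3 and B5 and 6 of 6 in B6 and B7, 2 of 6 in gut against midbrain and 0 of 6 in neural tube against forebrain. In lung against heart 5 of 6 copies were called lower and Gm28438 higher, at 2.64, or 2.85 without E5420-07 and E5420-09. The shares of all genes called were 71.6% and 70.4% in heart against face and 66.6% in gut against midbrain. They were 36.2% in neural tube against forebrain and 80.4% in lung against heart, and these lists were not tested against them.

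Homozygous and wild-type tissue were then compared in 14 settings, which gave 210 tests of a member. Of these 4 were called by edgeR, all lower in homozygous faces, and 62 had an unadjusted p under 0.05. Of all genes, 0.748% (B5 hearts) to 16.8% (B6 hearts) were under that p in the 14 settings. Comparisons with 2 libraries a group leave few degrees of freedom, and in 12 of the 14 settings edgeR called 2 genes or fewer in all. Shares of all genes called are given for the main edgeR fit only. Counts of members from DESeq2, other settings or left-out libraries stand without that share and are not read as particular to the members. The share of all genes without overlap between genotypes is not given either. A lack of overlap, easily reached with 2 libraries a group, is therefore not read as particular to a gene or list.

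In line B6, 3 mitochondrial mRNAs were called lower in homozygous faces than in wild-type faces. The share of counts was 0.569% ± 0.125 (SD, n = 2) against 1.11% ± 0.0794 (SD, n = 2). Values per library are given from here on in CPM after TMM scaling, homozygous first. mt-Nd6 was at 66.8 and 57.8 CPM against 217.7 and 155.8 CPM, a log2 fold change of -1.58 (SE 0.18). mt-Nd4 was at 534.7 and 379.3 CPM against 1310 and 1349 CPM, a change of -1.54 (SE 0.18), and mt-Nd5 at 322.8 and 238.0 CPM against 787.6 and 805.8 CPM, a change of -1.51 (SE 0.16). These 3 complex I mRNAs were the members called, each with an edgeR adjusted p of 0.0491, where 0.0723% of 15210 genes were called. They did not overlap between genotypes, and among the members only mt-Atp6 and mt-Rnr1 did. Just past the threshold were mt-Co1 at -1.45 (edgeR adjusted p = 0.0607), mt-Cytb at -1.47 (0.0743) and mt-Nd4l at -1.93 (0.0963). In all 13 members lay below 0, with a median of -1.09, and 11 had an unadjusted p under 0.05, against 8.65% of all genes.

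The members of line B6 did not move by one amount. mt-Nd3 was 0.42 above wild type and mt-Co3 0.18 above, or -0.05 with Gm28437 summed, while mt-Atp6 was at -0.37, mt-Rnr1 at -0.50, mt-Nd1 at -0.72 and mt-Rnr2 at -1.02. With copies summed 4 were called, mt-Nd4l joining at -1.94. The 3 calls rest on a narrow margin: with RLE scaling in place of TMM the same changes had an adjusted p of 0.0649 and 0 members were called, and 0 were called in a joint fit of all 64 libraries. DESeq2 called 9. Leaving out homozygous face 1 gave 11 calls, homozygous face 2 gave 5, and either wild-type face 9. Muscle markers moved with the members. The 8 cardiomyocyte markers summed to 48.7 to 54.1 CPM in homozygous and 90.2 to 120.6 CPM in wild-type faces, and 0 of the 6 tested lay above 0 (median -1.19, 0 called by edgeR, 4 at an unadjusted p under 0.05). The 4 skeletal muscle markers summed to 37.2 to 45.6 CPM against 67.9 to 80.7 CPM, 0 of 4 above 0 (median -0.74, 0 called, 3 at an unadjusted p under 0.05). Cranial mesenchyme markers, all 7 above 0 (median 0.25), summed to 1537 to 1552 CPM against 1321 to 1345 CPM. The part of these in the result was not tested.

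In line B7, 1 member was called lower in homozygous faces, and whether the change differed from that of B6 was not tested. mt-Nd6 was at 112.5 and 102.7 CPM against 229.9 and 214.5 CPM, without overlap, a log2 fold change of -1.05 (SE 0.09, 95% interval -1.26 to -0.84, edgeR adjusted p = 0.0252). It was the 1 member called, where 0.0329% of genes were. mt-Nd5, at 445.0 and 478.0 CPM against 775.0 and 800.8 CPM, was next with -0.77 (edgeR adjusted p = 0.0562). In all 14 members lay below 0, with a median of -0.57, and 11 had an unadjusted p under 0.05, against 7.55% of all genes. mt-Co3 was at 0.03 and mt-Nd3 at -0.08, again the members nearest 0. DESeq2 called 7. The call of mt-Nd6 was lost without wild-type face 1 (-0.997, edgeR adjusted p = 0.104) or wild-type face 2 (-1.10, edgeR adjusted p = 0.0925), and 7 or 10 members were called without homozygous face 1 or 2. In the joint fit of all 64 libraries 0 were called. Muscle markers overlapped between genotypes here, cardiomyocyte markers at 10.5 to 55.2 CPM in homozygous and 29.6 to 53.2 CPM in wild-type faces and skeletal muscle markers at 8.07 to 36.5 CPM against 27.1 to 41.3 CPM. The ranges of some other RNAs did not overlap. Cranial mesenchyme markers were at 1050 to 1238 CPM in homozygous and 1319 to 1330 CPM in wild-type faces, and RNAs without a poly(A) tail at 42.4 to 52.4 CPM against 20.5 to 40.4 CPM. Gm42418 was at 7013 to 8329 CPM against 3016 to 6718 CPM, and Gm26917 at 310 to 352 CPM against 58.4 to 159 CPM. Their part in the result was not tested.

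The faces of lines B3 and B5 gave no called member. In B3, edgeR called 0 of 15 members (0.0131% of genes), DESeq2 0, and 0 had an unadjusted p under 0.05. mt-Nd4l was at 33.02 and 46.3 CPM against 43.6 and 65.7 CPM (log2 fold change -0.47, edgeR adjusted p = 0.523), and mt-Nd3 at 287.8 and 334.0 CPM against 270.2 and 289.6 CPM (0.15), the 1 member above 0. Both overlapped. In B5, edgeR called 0 (0% of genes), DESeq2 1 and 2 had an unadjusted p under 0.05. These were mt-Nd4l, at 51.8 and 40.8 CPM against 25.9 and 28.9 CPM (0.75, SE 0.15), and mt-Atp8, at 25.6 and 16.1 CPM against 11.2 and 9.31 CPM (1.03, SE 0.24), each with an edgeR adjusted p of 0.999 and without overlap. The median over the members was 0.02 in B5 and -0.27 in B3. In B5, 2 members were called without homozygous face 2, 3 without wild-type face 1 and 7 without wild-type face 2. In B3, 2 were called without homozygous face 2 and 1 without wild-type face 1.

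In hearts of line B3 all 15 members lay above 0 in homozygous embryos, with a median of 0.77, and 12 had an unadjusted p under 0.05, against 9.47% of all genes. edgeR called 0 members and 0% of genes, and DESeq2 called 9. mt-Nd5 was at 2397 and 2567 CPM against 1278 and 1310 CPM, a log2 fold change of 0.94 (SE 0.14, edgeR adjusted p = 0.524). mt-Nd4 was at 3224 and 3532 CPM against 1739 and 1899 CPM, a change of 0.89 (SE 0.15). The genotypes did not overlap for either, and the share of counts was 3.15% ± 0.0419 (SD, n = 2) against 1.86% ± 0.168 (SD, n = 2). Without wild-type heart 1, 3 members were called. Other cell types moved with the genotype in these libraries. The 8 cardiomyocyte markers, all above 0 (median 0.53, 0 called by edgeR, 3 at an unadjusted p under 0.05), summed to 23058 to 26184 CPM in homozygous and 13935 to 18985 CPM in wild-type hearts. Gut markers summed to 1.54 to 2.29 CPM against 16.1 to 116.2 CPM and lung markers to 1.48 CPM in both homozygous hearts against 15.0 to 135.2 CPM. The part of these lists in the result was not tested.

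In the B2 hearts, with 4 libraries a group, no member was called. All 15 log2 fold changes lay below 0, with a median of -0.33, and 10 had an unadjusted p under 0.05, against 4.85% of all genes. edgeR called 0 members and 0% of genes, and DESeq2 called 4. mt-Atp6 was at 1169, 2056, 1714 and 1716 CPM against 2636, 2756, 2706 and 3184 CPM, without overlap, a log2 fold change of -0.76 (SE 0.14, 95% interval -1.07 to -0.45, unadjusted p = 0.000182, edgeR adjusted p = 0.523). With its copy Gm10925 summed, mt-Atp6 was at -0.40. mt-Nd6 was at 232.4, 332.6, 276.6 and 317.6 CPM against 374.5, 435.2, 458.2 and 441.5 CPM, also without overlap (-0.56, SE 0.11, edgeR adjusted p = 0.751). The share of counts was 2.16% ± 0.331 (SD, n = 4) against 2.91% ± 0.318 (SD, n = 4). Cardiomyocyte markers were at 20582 to 29915 CPM and 27521 to 31479 CPM, with 0 of 8 above 0 (median -0.25), and hepatocyte markers at 1.93 to 1205 CPM and 1.58 to 120.7 CPM, with 6 of 6 tested above 0 (median 2.78). Their part in the result was not tested.

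**Figure D4:**
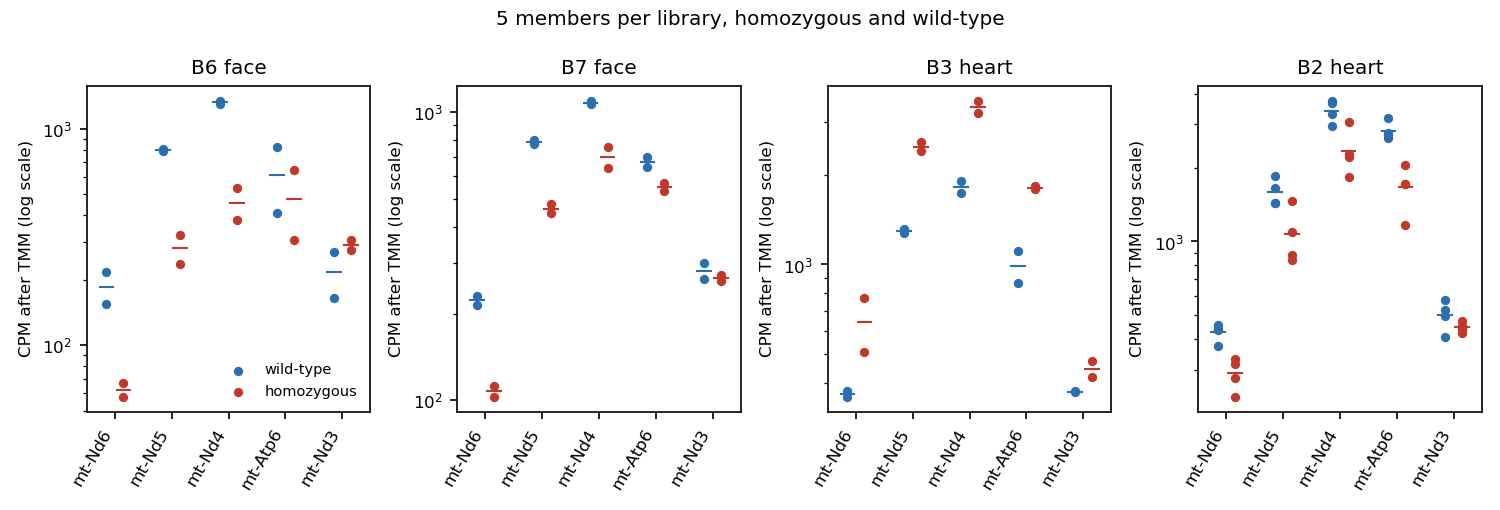
CPM after TMM scaling of mt-Nd6, mt-Nd5, mt-Nd4, mt-Atp6 and mt-Nd3 in each library of the B6 and B7 faces and the B3 and B2 hearts, on a log axis, blue for wild type and red for homozygous. mt-Nd6, mt-Nd5 and mt-Nd4 are lower in all homozygous B6 and B7 faces and higher in both homozygous B3 hearts, while the log2 fold changes of mt-Nd3 are between -0.17 and 0.42.

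The remaining hearts had at most 1 member at an unadjusted p under 0.05. In B5, edgeR called 0 members (0% of genes), DESeq2 0, and 1 had an unadjusted p under 0.05, mt-Co3, at 1452 and 1528 CPM against 2272 and 2562 CPM. Its log2 fold change of -0.70 (SE 0.22) became -0.41 with Gm28437 summed. Lung and gut markers also differed among the B5 hearts, as given above, and their part in the result was not tested. The median over members was -0.39. Without homozygous heart 1, the library with cranial mesenchyme and neuron markers, it was -0.08 with 6 members above 0, and without homozygous heart 2 it was -0.75 with 1 called. The homozygous B6 hearts, against wild-type hearts of other lines, had a median of 0.06, 0 members called by edgeR (0% of genes) or DESeq2 and 1 with an unadjusted p under 0.05, mt-Nd5, at 2584 and 1909 CPM against 1174 to 2006 CPM (0.54, edgeR adjusted p = 0.284). B7 hearts had a median of -0.36, 0 members called by edgeR (0% of genes) or DESeq2 and 0 with an unadjusted p under 0.05. Both depended on the wild-type line used. Against the B2 wild-type hearts alone 7 members were called in B6 and 9 in B7. Against those of B3 alone the medians were 0.68 and 0.25, and against those of B5 alone 0.08 and -0.30, with 1 member called in B7.

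In B4, the homozygous midbrain had 12 of 15 members below 0, with a median of -0.32. An unadjusted p under 0.05 was found for 9, against 7.25% of all genes. edgeR called 0 (0.00677% of genes) and DESeq2 4. mt-Nd4 was at 436.2 and 417.7 CPM against 601.7 and 666.4 CPM (log2 fold change -0.57, SE 0.09, edgeR adjusted p = 0.668). mt-Co3 went the other way, at 151.3 and 202.6 CPM against 95.7 and 102.1 CPM (0.84, SE 0.15), but with Gm28437 summed it was at 0.19. Without homozygous midbrain 1, 6 members were called. Forebrain markers moved with genotype, all 5 above 0 (median 1.22), and midbrain markers all 5 below 0 (median -0.74), with 3 of each at an unadjusted p under 0.05 and 0 called. Their part in the result was not tested. The gut of B4 had a median of -0.40, with 0 members called by edgeR (0% of genes), 1 by DESeq2 and 1 at an unadjusted p under 0.05. This was mt-Co2, at 114.9 and 105.5 CPM against 193.5 and 161.1 CPM (-0.69, SE 0.13, edgeR adjusted p = 0.238), or -0.53 with Gm28661 summed. mt-Co3 was at 237.8 and 72.9 CPM against 352.1 and 277.2 CPM (-1.02, SE 0.45), or -0.15 with its copy. Without homozygous gut 1, 4 members were called, without wild-type gut 1 there were 2 and without wild-type gut 2 there was 1.

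In the B8 tissues the members had medians near 0. The genotype labels of the B8 forebrains could not be checked with these genes, and were they reversed, the sign of each forebrain difference between genotypes would turn, as would its part in the interaction. In forebrain the median was 0.16, with 0 members called by edgeR (0% of genes), 0 by DESeq2 and 1 at an unadjusted p under 0.05, mt-Atp6, at 929.4 and 1236 CPM against 647.1 and 730.6 CPM (log2 fold change 0.65, SE 0.16, edgeR adjusted p = 0.826, or 0.26 with Gm10925 summed). In neural tube the median was -0.02, with 0 called by edgeR (0.0132% of genes), 0 by DESeq2 and 3 at an unadjusted p under 0.05. mt-Nd4l was at 10.1 and 13.4 CPM against 17.6 and 20.1 CPM (-0.68, SE 0.19, edgeR adjusted p = 0.419), and mt-Atp6 at 796.8 and 922.4 CPM against 425.3 and 732.2 CPM (0.57), or 0.11 with its copy. In neural tube 1 member was called without homozygous neural tube 1 and 2 without homozygous neural tube 2. In forebrain 3 were called without homozygous forebrain 1 and 1 without wild-type forebrain 2.

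The B2 lungs gave 0 members called by edgeR (0% of genes), 0 by DESeq2 and 0 at an unadjusted p under 0.05, with a median of -0.36. Without E5420-07 and E5420-09 the median was -0.20 and 0 were called. The most different members were mt-Atp8 at -1.04 (SE 0.81) and mt-Nd4l at -0.96 (SE 0.77), each with an edgeR adjusted p of 0.89. Without those 2 libraries they were at -0.50 and -0.35.

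**Figure D5:**
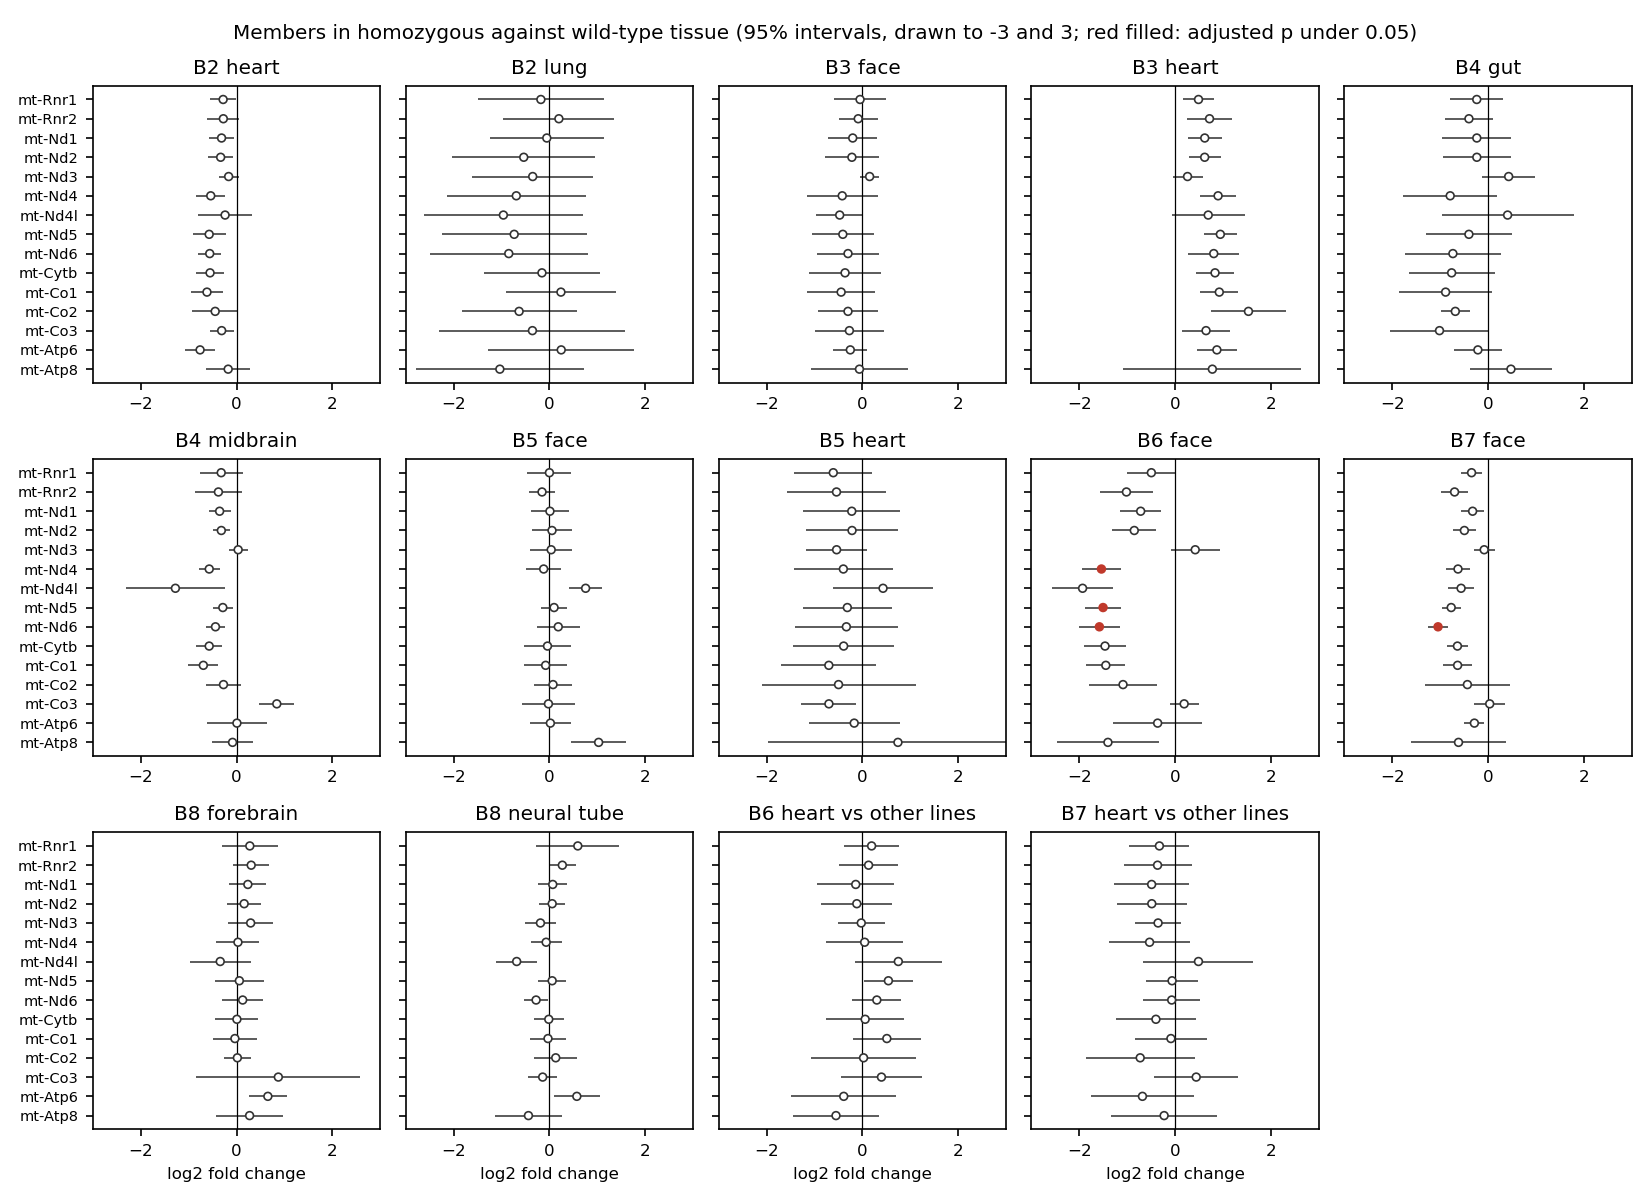
Log2 fold changes, homozygous minus wild type, with 95% intervals drawn within -3 to 3, for the 15 members in the 14 comparisons; red points passed an edgeR adjusted p of 0.05. Only 3 members in the B6 face and 1 in the B7 face are red, the B3 hearts lie above 0 throughout and the B2 hearts below it.

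Whether the genotype difference itself differed between the tissues of a line was tested by an interaction term. edgeR called 0 members in all 5 lines tested, where it called 0.0311% of genes in B3 and 0% in B2, B4, B5 and B8. In B3, heart minus face, all 15 members lay above 0, with a median of 1.09. An unadjusted p under 0.05 was found for 11, against 9.12% of all genes, and DESeq2 called 1. mt-Atp6 was at 1.12 (SE 0.26, edgeR adjusted p = 0.502) and mt-Co2 at 1.82 (SE 0.51, edgeR adjusted p = 0.5263), or 0.91 and 1.02 with copies summed. Without wild-type heart 1, 2 members were called there. In B4, gut minus midbrain, 1 member had an unadjusted p under 0.05, mt-Co3, at -1.83 (SE 0.60, unadjusted p = 0.0151) and -0.31 with its copy. In B2, B5 and B8, 0 had an unadjusted p under 0.05 and DESeq2 called 0. The members of smallest p there were mt-Co1 (0.88) and mt-Atp6 (1.00) in B2, which became 0.58 and 0.47 without the lungs E5420-07 and E5420-09, mt-Co3 (-0.67) and mt-Nd3 (-0.57) in B5, and mt-Nd6 (-0.41) and mt-Nd3 (-0.48) in B8. The B6 and B7 faces could not be set against heart in this way, since those lines gave no wild-type heart.

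The listed nuclear subunits did not pass the test in any comparison of genotypes. In each of the 14, 0 of 24 were called by edgeR, with 0 to 9 at an unadjusted p under 0.05. In the B6 faces, where 3 of the 13 mitochondrial mRNAs were called lower, 22 of 24 nuclear subunits lay above 0 (median 0.13), and in the B7 faces 7 of 24 (median -0.07). In the B3 hearts 24 of 24 lay above 0 (median 0.30), 1 at an unadjusted p under 0.05. In the B2 hearts 1 of 24 did (median -0.19), and 9 had an unadjusted p under 0.05. Of all genes, 9.47% in the B3 hearts and 4.85% in the B2 hearts were under that p. The B4 midbrain and the B8 forebrain had 24 of 24 above 0, with medians of 0.11 and 0.19. None of the 35 genes of mitochondrial gene expression and none of the 5 regulators of biogenesis was called by edgeR in these 14 comparisons either, with up to 4 and up to 3 at an unadjusted p under 0.05. Among the nuclear copies 1 was called, Gm10222 in the B6 faces, at -1.94 (edgeR adjusted p = 0.028), next to mt-Nd4l at -1.93.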

How the data were processed

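RNA-seq of 64 embryonic samples was used, and 23 Hi-C samples of adult liver were not analysed. RNA was isolated with the Qiagen RNeasy Mini Kit and sequenced on a NovaSeq in paired reads, as the study's methods state. The authors aligned reads to mm10 with STAR (named, with bcl2fastq, in the submitters' processing notes) and estimated expected counts per gene with RSEM on GENCODE M4, as deposited. The deposited TPM values were made by the authors with RSEM in the same step and were used only to set genes beside each other. The deposited FPKM values were not used. The library kit and the strand setting are not given in the sources used here. Another 26344 entries are not Ensembl genes and were left out, with at most 2.19e-05% of a library's counts.

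Expected counts were rounded to whole numbers and tested with edgeR 4.0.16 in R 4.3.3 (filterByExpr, TMM, quasi-likelihood test, Benjamini-Hochberg over all genes tested, called at an adjusted p under 0.05), within each pair of groups, with line and genotype as terms in the comparisons of tissues and an interaction term for genotype by tissue. The step was tested on simulated data. Alternatives were RLE factors, scaling on other genes, no filter, DESeq2 1.42.0 (the study used DESeq), a joint fit, other wild-type hearts and leaving out each library. Summing members with their copies, and the gene lists in lung against heart without 2 lungs, were added after seeing the data. The list of RNAs without a poly(A) tail, Gm42418, Lars2 and Gm26917 were not among the planned lists either. Nuclear copies were found with blastn 2.17.0 on the GRCm38 reference and GENCODE M21, which placed 42462 of 43346 genes. Groups came from the labels. Sex, which the labels give for the lungs alone, was an alternative term there. The 64 pairs of replicates held 0 identical pairs, and in each the counts differed beyond counting noise (chi-square per gene of at least 6.26). Depth limits low members in single libraries. mt-Atp8 and mt-Nd4l had median counts of 638 and 423 over the 64 libraries, and lowest counts of 6 and 5. Counts as low as the latter carry counting error beside the spread between samples. Named members were up to 4 called of largest change per comparison, otherwise the 2 of smallest p. Up to 4 called genes of each list were named. Genes described beside these (the members just past a threshold, those nearest 0, and the lung values of mt-Co1, mt-Co3 and mt-Nd2) were chosen after their values were seen. The members and lists were chosen with earlier results of these data known.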

Additional observations from a re-analysis of the deposited data

Results flagged for a closer look

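Among 64 tests for an outlying library, over the B2 hearts and lungs, in groups of 4 or 6 samples, 5 found the highest or lowest value far from the rest, and chance flags about 1 in 20 groups. In the homozygous B2 hearts, library A57 was low for mt-Co3, at 541 CPM. In the wild-type B2 hearts, library A55 was apart for mt-Nd1, at 4222 CPM. Among the homozygous lungs, E5420-05 was low for mt-Rnr1, at 5206 CPM. The wild-type lung E5420-07 was apart for mt-Nd4l, at 0.214 CPM, and for mt-Nd6, at 0.343 CPM.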

How the results depend on the processing

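The counts of members called differed from the main ones in 33 of 152 values from other settings, by over 1.5 times in 22, and in 39 of 192 values from leaving out 1 library, by over 1.5 times in 35. The share of all genes called in each of these settings, or with a library left out, is not given here. The counts are therefore not read as particular to the members. The following are those past 1.5 times. DESeq2 called 4 members in the B2 hearts, 9 in the B3 hearts, 1 in the B4 guts, 4 in the B4 midbrains, 1 in the B5 faces, 9 in the B6 faces, 7 in the B7 faces and 1 in the B3 interaction. Without a filter on low counts edgeR called 9 in the B3 faces, 7 in the B4 guts, 12 in the B6 faces, 12 in the B7 faces, 3 in the B8 neural tubes, 2 in neural tube against forebrain and 1 in the B4 interaction. In the B6 faces RLE factors gave 0, and the joint fit of 64 libraries gave 0 in the B6 faces and 0 in the B7 faces. Wild-type hearts of B2 alone gave 7 in the B6 hearts and 9 in the B7 hearts, those of B5 alone 1 in the B7 hearts, and against those of B3 alone the B7 hearts turned to 0.0102 for mt-Nd3 and 0.17 for mt-Nd2. Wild-type samples alone gave 1 in neural tube against forebrain. The cause of these changes was not tested. Scaling on genes other than the mitochondrial ones moved no count of calls by over 1.5 times. The other named members kept their direction in all 354 values but those 2.

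As each library was left out, the called members were 0 to 2 in the B3 faces, 0 to 3 in the B3 hearts, 0 to 4 in the B4 guts, 0 to 6 in the B4 midbrains, 0 to 7 in the B5 faces, 0 to 1 in the B5 hearts, 5 to 11 in the B6 faces, 0 to 10 in the B7 faces, 0 to 3 in the B8 forebrains and 0 to 2 in the B8 neural tubes. They were 15 to 15 in heart against face in B3 and B5, 14 to 15 in B6 and B7, 4 to 11 in gut against midbrain, 0 to 1 in neural tube against forebrain and 12 to 14 in lung against heart. The interactions gave 0 to 2 in B3, 0 to 1 in B4 and 0 to 1 in B5, and the others 0 throughout. A library left alone in its group was assumed to vary like the other groups, so a count can rise as a group loses its spread.

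With copies added, the members held a median of 1.48% of counts in faces, 1.20% in forebrains, 1.18% in guts, 3.41% in hearts, 0.740% in midbrains and 1.09% in neural tubes. The 13 mRNAs alone held 0.828% in lungs. No paired analysis was possible because the labels carry no replicate number that ties samples of different groups, and replicates were numbered in accession order. The title codes that lungs of both genotypes share were fitted as a term instead, and 0 members were called in lung, with a median of -0.22.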
